A study of Mus musculus with 20 samples.

Results

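Of the 43422 genes measured in the abdominal aorta, 10 were chosen by name: 3 small heat shock proteins that are abundant in muscle (Hspb1, Hspb8 and Cryab) and 7 chaperones and co-chaperones known to be induced by stress (Hspa1a, Hspa1b, Hsph1, Dnajb1, Bag3, Hsp90aa1 and Hspe1). Each gene matched 1 Ensembl identifier, and all 10 passed the filter on low values in every comparison. RNA sequencing was done on 1 abdominal aorta from each of 20 mice, 5 in each of 4 groups: WT mice given saline, WT mice given angiotensin II (Ang II), Plod1-/- mice given saline, and Plod1-/- mice given Ang II. The strain is C57BL/6 in the labels and C57Bl/6NCrl in the study's methods. The 2 genotypes were bred as littermates from heterozygous parents. The labels give an age of 6 months, where the study's methods state a younger age at the start of the infusion, and an Ang II dose of 1000 ng/kg per minute, delivered by osmotic pump over 14 days. Plod1 encodes lysyl hydroxylase 1 (LH1), which modifies lysines of collagen, and the values do not separate the cell types of the vessel wall. Values are FPKM, read fragments scaled to the length of the transcript and to the size of the library.

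Small heat shock proteins are holdases: they bind unfolding proteins without using ATP and pass them to other chaperones. In smooth and striated muscle Hspb1 (HSP27), Cryab (αB-crystallin) and Hspb8 are present without stress, associate with actin and intermediate filaments, and, for Hspb8, act with the co-chaperone Bag3 in the clearance of damaged filament proteins. The stress-induced chaperones are raised under stress by heat shock factor 1, which binds repeated nGAAn units in promoters. Hspa1a and Hspa1b encode the inducible HSP70, Dnajb1 the HSP40 that delivers clients to it, Hsph1 the HSP110 that exchanges its nucleotide, Hsp90aa1 the inducible form of HSP90, and Hspe1 the mitochondrial co-chaperonin HSP10.

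Plod1 stood at 22.8 to 29.7 FPKM in the 10 WT libraries and at 0.0415 FPKM or less in the 10 Plod1-/- libraries. The markers of smooth muscle defined the tissue in all groups, with Acta2 between 1901 and 17685 FPKM, although Tagln, also a smooth muscle gene, was listed at only 1.46 to 12.2 FPKM. The libraries had relative depths between 0.903 and 1.09, estimated from the step size of low values. These are rough. Outside the reference library, replicate 1 of the WT saline mice, a share of only 0.14 to 0.185 of the low genes lay at the most common ratio. Mitochondrial transcripts took 23.3% of the summed FPKM on average in WT mice given Ang II and 11.1% in WT mice given saline. The study's methods name male mice, yet 2 libraries held Xist RNA, with 15.1 FPKM in replicate 5 of the saline-treated Plod1-/- mice and 7.93 FPKM in replicate 1 of the Ang II-treated Plod1-/- mice, against at most 0.0328 FPKM elsewhere. That replicate 1 and replicates 1 and 2 of the saline-treated WT mice stood apart for several heat shock genes, and values without them are given beside the results they bear on.

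The promoters were searched for the units that heat shock factor 1 binds. The chaperones were chosen as genes induced by stress, so the count of matches is a description and not a test. RefSeq promoters on GRCm38.p6 were found for 8 of the 10 genes, not for Cryab or Hsp90aa1. The paired unit of heat shock factor 1, written GAANNTTC or TTCNNGAA (each its own reverse complement, so both strands are covered), occurred in the 250 bases before the start of 5 of the 8 genes, compared with 12.8% of 32851 promoters. Hspb1 had it at positions -117 and -97 from the start, Hspa1a and Hspa1b at -104, and Hsph1 at -33. The promoters of Hspa1a and Hspa1b were 98.8% identical, so their matches are not independent. Hspe1 held 3 overlapping copies at -89, -84 and -79, an array of adjoining units. A run of 3 or more such units, alternating between GAA and TTC, occurred in 0.466% of promoters. These letters did not occur in the windows of Hspb8, Dnajb1 and Bag3. The 150 bases before the start are printed for Hspb1, the small heat shock protein with the unit, and for Hspa1a and Hspa1b, whose near identity bears on their values; for Hspe1 only the array is printed. Capitals mark the GAA and TTC units of each match. The windows are chr5:135887769-135887918 (plus strand) for Hspb1, chr17:34972157-34972306 (minus strand) for Hspa1a, chr17:34959239-34959388 (minus strand) for Hspa1b and chr1:55088059-55088076 (plus strand) for Hspe1.
Hspb1: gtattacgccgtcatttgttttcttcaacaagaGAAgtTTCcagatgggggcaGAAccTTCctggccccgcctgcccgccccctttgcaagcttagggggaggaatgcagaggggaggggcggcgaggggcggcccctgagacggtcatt
Hspa1a: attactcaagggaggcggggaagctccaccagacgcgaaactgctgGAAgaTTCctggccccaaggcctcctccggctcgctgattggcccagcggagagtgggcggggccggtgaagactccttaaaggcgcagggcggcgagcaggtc
Hspa1b: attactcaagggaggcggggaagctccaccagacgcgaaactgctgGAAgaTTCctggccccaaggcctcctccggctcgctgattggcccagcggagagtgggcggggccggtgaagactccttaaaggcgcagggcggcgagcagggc
Hspe1: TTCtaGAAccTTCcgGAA

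Hspa1a and Hspa1b cannot be fully separated by short reads. Their coding sequences were 99.4% identical, their proteins differed at 1 position or gap over 641 and 642 residues, and 47.1% of the 100-base windows of the Hspa1a transcript also occurred in that of Hspa1b. Their separate values are therefore uncertain, and the sum of both is given where it bears on a result. Strand was not kept by the library kit, so reads of Cryab and Hspb2, and of Hspe1 and Hspd1, which overlap on opposite strands, cannot be told apart where their exons overlap. Hspb2 reached at most 14.6 FPKM, far under Cryab, while Hspd1 reached 111 FPKM, a level like that of Hspe1.

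On the per-length FPKM scale Hspb1 and Cryab had the highest means, while the values of Hspb8 overlapped those of chaperones under Ang II. Hspb1 had the highest mean of the 10 genes in each of the 4 groups (2742 ± 696, 737 ± 56.7, 1253 ± 323 and 965 ± 1079 FPKM in WT saline, WT Ang II, Plod1-/- saline and Plod1-/- Ang II mice; SD, n = 5 each). Cryab came next in each group, with means between 184 and 309 FPKM. Hspb8 had means between 73.1 and 152 FPKM and was the third in every group but the Plod1-/- Ang II mice, where Hsp90aa1 stood at 73.6 FPKM. Hsp90aa1 (60.9 to 127), Hspe1 (50.1 to 90.1) and Bag3 (47.6 to 87.2) followed and exchanged places between groups. Dnajb1, Hsph1, Hspa1b and Hspa1a formed the lower end, with Hspa1a the lowest in every group (26.1 ± 26.9, 6.85 ± 3.52, 10.3 ± 2.62 and 5.70 ± 2.94 FPKM). Among these 4 the spreads overlapped in WT saline mice.

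**Figure D1:**
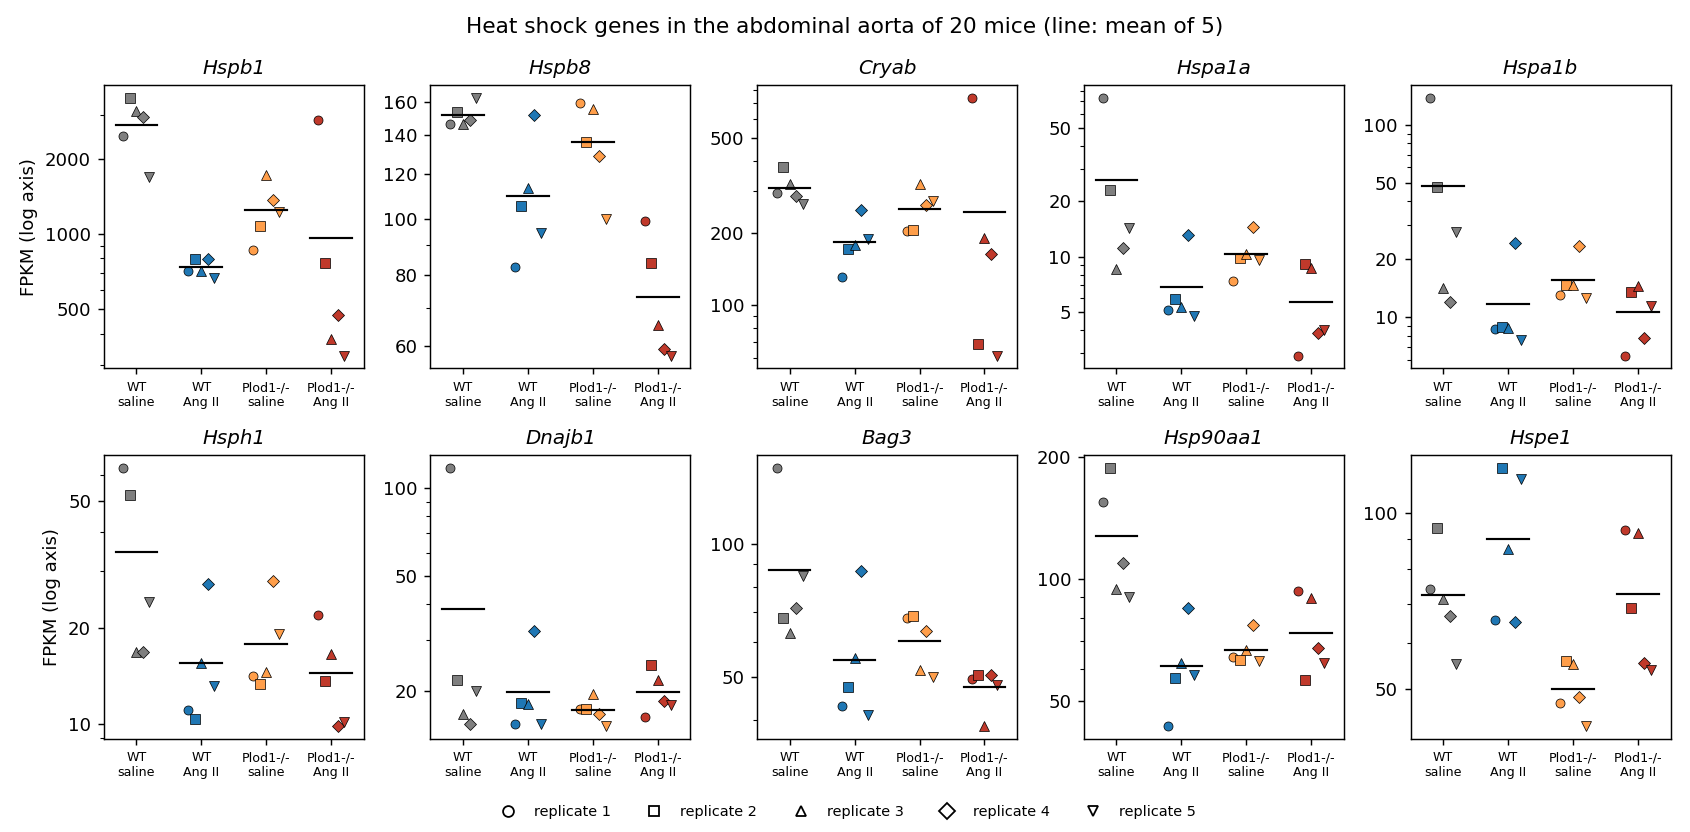
FPKM (log axes, a scale of its own in each panel) of the 10 heat shock genes in every mouse, by group, with the replicate shown by the shape of the point and the mean of 5 mice by a line. For Dnajb1 1 saline-treated WT mouse lies at 117 FPKM and the other 4 between 15.4 and 21.9, and for Hspb1 1 Ang II-treated Plod1-/- mouse lies at 2870 FPKM and the other 4 between 327 and 768.

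Under Ang II 3 of the 10 genes fell in WT mice, and none passed the same criteria in Plod1-/- mice. A gene was said to rise or fall where limma's Benjamini-Hochberg adjusted p was below 0.05 and the change of log2(FPKM + 1) exceeded 1. In WT mice Hspb1, Hspa1a and Hsp90aa1 fell, beside 2.28% of the 11994 genes tested, and no member rose, beside 6.38%. In the Plod1-/- mice 0 of 10 fell, beside 5.51% of 12333 genes, and 0 rose, beside 8.38%. With an unadjusted p below 0.05 in limma, 8 of the 10 differed in WT mice, all lower, beside 50.4% of all genes in either direction, and 5 of the 10 in Plod1-/- mice, 4 lower and 1 higher, beside 51.8%. The median of the 10 log2 changes was -0.87 in WT mice, where the median of all genes was -0.14, and -0.43 in Plod1-/- mice, where it was 0.05. Without replicates 1 and 2 of the WT saline mice the WT median was -0.57, where that of all genes was -0.15. Of the members only Hspb1 (-1.76) then passed both thresholds in WT mice. Without replicate 1 of the Ang II-treated Plod1-/- mice, Hspb1 (-1.40), Cryab (-1.21) and Hspb8 (-1.02) passed them in Plod1-/- mice. The contrast of 3 and 0 thus depends on few mice. For these fits with mice left out, no share of all genes is given beside the member counts. The WT and Plod1-/- comparisons share no mice. In the WT comparison the fat markers moved most among the marker lists: all 6 tested of 7 white adipocyte markers rose, their sum going from 124 to 565 FPKM under saline to 1045 to 3835 FPKM under Ang II, and 5 of 6 brown adipocyte markers rose (28.2 to 436 and 605 to 4828 FPKM). Of 12 immediate early genes 9 fell there, and of 10 smooth muscle markers 3 fell. The part of these in the falls of the members was not tested.

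Between genotypes, 1 gene differed under saline and none under Ang II. Under saline Hspb1 was lower in Plod1-/- mice, beside 0.408% of 11999 genes, and no member was higher, beside 0.358%. The median of the 10 changes was -0.68 and that of all genes -0.01, and all 10 values were negative, of which 3 had an unadjusted p below 0.05 beside 27.1% of all genes. The median was -0.43 without replicate 1 of the WT saline mice and -0.20 without replicates 1 and 2, with all 10 values still negative. Under Ang II 0 of 10 were lower, beside 3.67% of 12356 genes, and 0 were higher, beside 7.45%. With an unadjusted p below 0.05 in limma, 1 member, Hspb8, differed under Ang II, beside 43.5% of all genes. The response to Ang II itself differed between genotypes for 1 member, Hsp90aa1, which was positive, beside 9.69% of 13263 genes, while 6.36% were negative. The genotype comparisons use the same 20 mice as the responses to Ang II, so the 5 sets of values are not independent.

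By the adjusted p alone, without the limit on size, more members passed, and so did many more genes. In WT mice 5 members were lower under Ang II, beside 21.5% of all genes tested that were lower by this rule. Plod1-/- mice had 3 that passed, 2 lower and 1 higher, beside 43.8% in either direction. Under saline 3 were lower in Plod1-/- than in WT mice, beside 3.23%. Under Ang II none differed between genotypes, beside 31.2%, and 1 response differed, beside 37.8%.

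**Figure D2:**
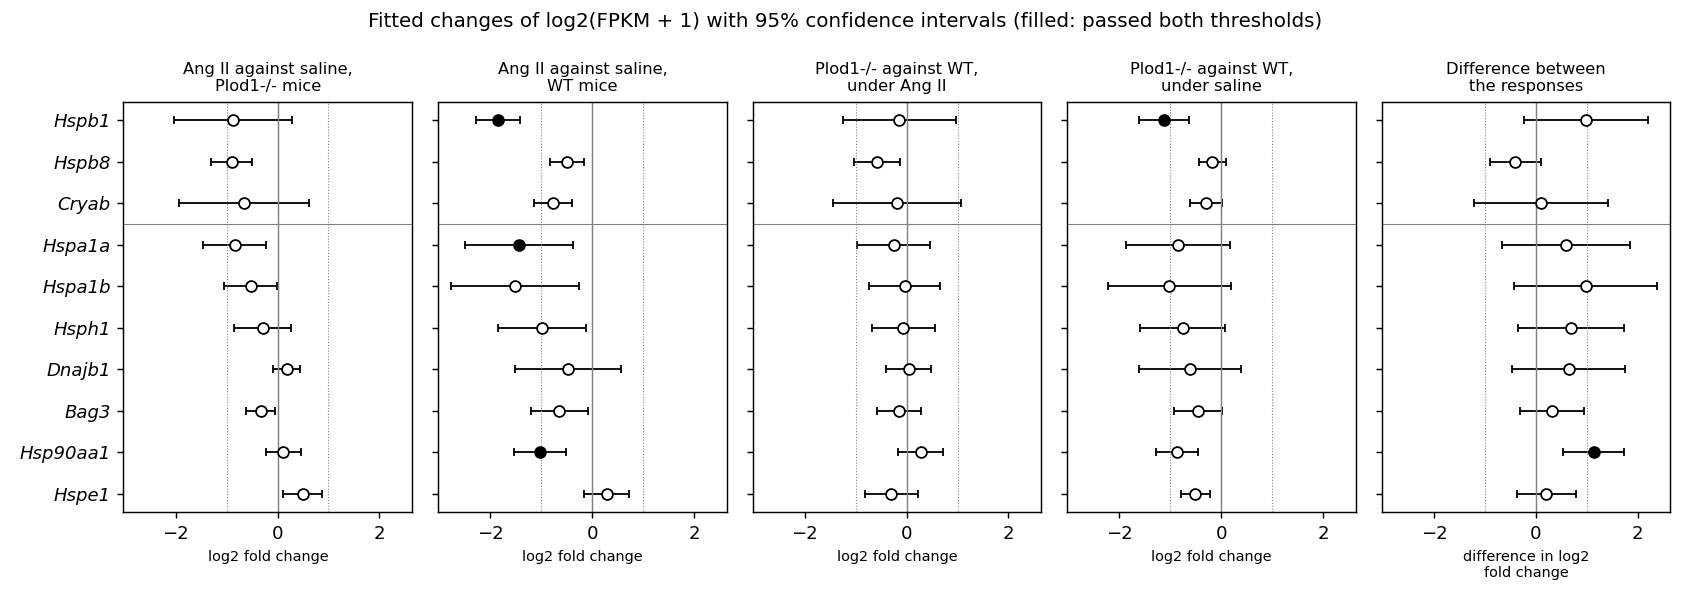
Fitted changes of log2(FPKM + 1) of the 10 genes in the 4 comparisons and the difference between the responses (Plod1-/- minus WT), with 95% confidence intervals. Filled points passed both thresholds, dotted lines mark a change of 1 in either direction, and the grey horizontal line separates the small heat shock proteins from the chaperones. The filled points are Hspb1, Hspa1a and Hsp90aa1 in WT mice, Hspb1 between genotypes under saline, and Hsp90aa1 for the difference.

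Hspb1, the actin-associated HSP27, was the most abundant member and fell most in WT mice. It stood at 2464, 3508, 3108, 2936 and 1693 FPKM in the WT saline mice and at 714, 797, 714, 793 and 666 FPKM in the WT Ang II mice. The groups did not overlap, and every Ang II-treated WT mouse lay below the lowest saline-treated one. The change was -1.85 (SE 0.20, adjusted p = 0.0018 in limma), and it passed both thresholds with any 1 of the 10 mice left out, between -2.02 and -1.76.

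In saline-treated Plod1-/- mice Hspb1 was already below the WT level. The 5 mice stood at 866, 1079, 1726, 1371 and 1222 FPKM, of which replicate 3 lay just above the lowest saline-treated WT mouse and the other 4 below all of them. The difference from WT mice was -1.12 (SE 0.22, adjusted p = 0.0237 in limma). Without replicates 1 and 2 of the saline-treated WT mice it was -1.03 with an adjusted p of 0.0913, and with the other groups in the same fit the adjusted p was 0.172; its alternatives, each with 1 choice changed or mice left out, gave adjusted p from 0.0124 to 0.172. In the same comparison the summed smooth muscle markers ran from 14307 to 20648 FPKM in WT and from 15256 to 20940 FPKM in Plod1-/- mice, the changes of all 12 immediate early genes were negative (median -1.19, 1 passing both thresholds), and all 7 endoplasmic reticulum chaperones were lower by the adjusted p. The part of these in the Hspb1 difference was not tested.

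Under Ang II the Plod1-/- mice did not form 1 group for Hspb1. Replicates 1 to 5 stood at 2870, 768, 382, 476 and 327 FPKM. Replicate 1 lay within the range of the WT saline mice, while the other 4 lay below every saline-treated Plod1-/- mouse. Over all 5 mice the response was -0.87 (SE 0.53, adjusted p = 0.204 in limma). Without replicate 1 it was -1.40 (SE 0.28, adjusted p = 0.00225), and with any other mouse left out the adjusted p reached at most 0.385. The difference between the genotypes' responses was 0.98 (SE 0.58, adjusted p = 0.188 in limma) with all mice and 0.46 without replicate 1.

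Cryab, the other abundant holdase, separated WT mice by treatment as Hspb1 did, with a smaller change. The WT saline mice stood at 295, 378, 323, 285 and 264 FPKM and the WT Ang II mice at 131, 171, 178, 251 and 188 FPKM. The groups did not overlap, and the change of -0.76 (SE 0.17, adjusted p = 0.0079 in limma) passed the adjusted p and not the limit on size.

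In Plod1-/- mice Cryab stood at 204, 206, 323, 262 and 272 FPKM under saline and at 739, 68.3, 190, 164 and 61.2 FPKM under Ang II. The same replicate 1 held the highest Cryab value of the study, and the other 4 lay below the saline group. The response was -0.66 (SE 0.58, adjusted p = 0.382 in limma) over all mice and -1.21 (SE 0.34, adjusted p = 0.0146) without that mouse, and the adjusted p reached 0.673 with another mouse left out. No difference between genotypes passed for Cryab, under saline (-0.30, 95% confidence interval -0.62 to 0.02) or under Ang II (-0.19, -1.45 to 1.07).

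Hspb8, the partner of Bag3, was the member with the tightest values in WT saline mice, at 146, 154, 146, 149 and 163 FPKM. Under Ang II the WT mice stood at 82.6, 105, 113, 152 and 94.7 FPKM, with replicate 4 inside the saline range. The Plod1-/- mice stood at 159, 137, 156, 129 and 100 FPKM under saline and at 99.1, 83.9, 65.4, 59.5 and 57.8 FPKM under Ang II. These 2 groups met without overlapping, at 100 and 99.1 FPKM. The response was -0.49 (SE 0.15, adjusted p = 0.0267) in WT and -0.90 (SE 0.18, adjusted p = 0.0027) in Plod1-/- mice in limma, neither past the limit on size. Without replicate 1 of the Ang II-treated Plod1-/- mice the second value was -1.02 (adjusted p = 0.000672), and with any other mouse left out the adjusted p was at most 0.00917. The 2 responses differed by -0.41 (95% confidence interval -0.91 to 0.10).

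Under Ang II the changes of the smooth muscle markers and of the 3 small heat shock proteins were negative in both genotypes. The 10 markers summed to 5600 to 17297 FPKM in WT Ang II mice, and replicate 4 had the highest sum. That mouse was also the highest of its group for 8 of the 10 members. These were Hspb8, Cryab, Hspa1a, Hspa1b, Hsph1, Dnajb1, Bag3 and Hsp90aa1, most of them chaperones. Hspb1 stood between 666 and 797 FPKM in the 5 WT Ang II mice and was highest in replicate 2. In Ang II-treated Plod1-/- mice replicate 1 had 17091 FPKM and the other 4 had 2362 to 6244 FPKM. Of the 10 markers 8 fell in Plod1-/- mice under Ang II and 3 fell in WT mice, and all 10 changes were negative in both. Macrophage markers ran the other way in the Plod1-/- mice, from 115 to 502 FPKM under saline and from 1072 to 5666 FPKM under Ang II, with replicate 1 the lowest. The part of these cell markers in the small heat shock protein values was not tested, and in bulk tissue fewer cells of a type and less RNA per cell cannot be told apart.

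Skeletal muscle is the other tissue rich in these proteins, and its markers were uneven among the WT Ang II mice. The 10 markers summed to 191 to 437 FPKM in WT saline, 77.3 to 641 in WT Ang II, 336 to 667 in Plod1-/- saline and 11.7 to 90.2 in Plod1-/- Ang II mice, most of it from Tcap alone except in replicate 2 of the WT Ang II mice. Without Tcap the other 9, chosen after their values were seen, summed to at most 9.60 FPKM in the 15 mice of the other groups, and to 3.71, 346, 177, 17.0 and 201.7 FPKM in WT Ang II replicates 1 to 5. Tnnc2 was at most 0.136 FPKM in every mouse. Hspb1 stood at 714, 797, 714, 793 and 666 FPKM in those 5 mice, and the part of skeletal muscle was not tested.

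**Figure D3:**
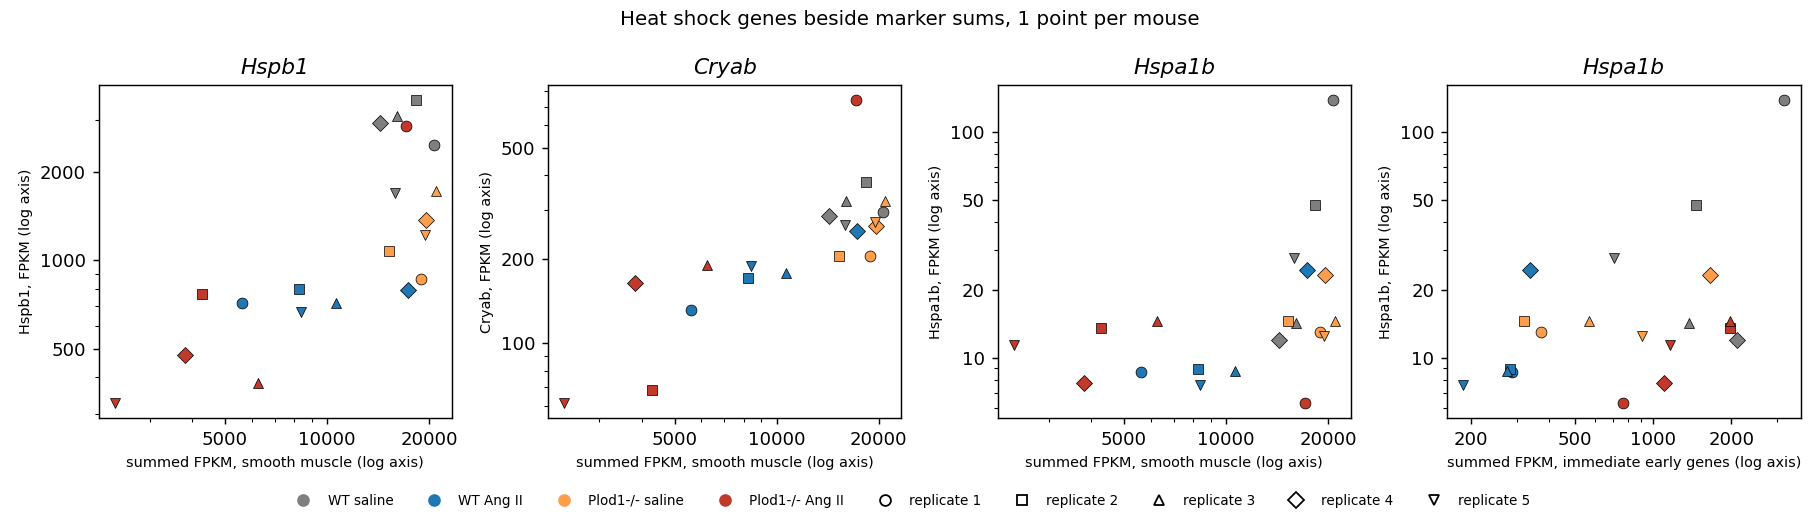
Hspb1, Cryab and Hspa1b in each mouse (FPKM, log axes) against the summed FPKM of 10 smooth muscle markers or 12 immediate early genes (log axes), with the group by colour and the replicate by shape. The Plod1-/- Ang II mouse with 17091 FPKM of smooth muscle markers has 2870 FPKM of Hspb1 and 739 FPKM of Cryab but only 6.32 FPKM of Hspa1b, and the WT saline mouse with 138 FPKM of Hspa1b has the highest sum of immediate early genes, 3200 FPKM.

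The other small heat shock proteins of muscle were given by a list of 6 genes, of which 3 passed the filter. Hspb6 (HSP20), a regulator of smooth muscle relaxation, fell in both genotypes under Ang II, by -1.13 (SE 0.22, adjusted p = 0.0045) in WT and -1.66 (SE 0.43, adjusted p = 0.0101) in Plod1-/- mice in limma. Hspb7, a muscle small heat shock protein that binds filamin, fell in Plod1-/- mice (-1.47, SE 0.48, adjusted p = 0.0302) and had a change of -0.90 in WT mice. The list's median was -0.90 in WT and -1.47 in Plod1-/- mice. In the Plod1-/- Ang II group Hspb6 stood at 157 FPKM and Hspb7 at 572 FPKM in replicate 1, against 24.9 to 52.0 and 64.8 to 156 FPKM in the other 4. Neither differed between genotypes by both thresholds, and Hspb2 did not pass them in any comparison. Cryaa, Hspb3 and Hspb9 reached at most 0.0917, 0.454 and 1.48 FPKM.

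The inducible HSP70 genes were highest in a single WT saline mouse. Hspa1a stood at 73.3, 23.0, 8.56, 11.2 and 14.4 FPKM in WT saline mice and at 5.11, 5.88, 5.36, 13.1 and 4.79 FPKM in WT Ang II mice. Replicate 1 of the saline group was the highest of all 20 mice, and replicate 4 of the Ang II group overlapped the saline range. The change was -1.44 (SE 0.48, adjusted p = 0.0371 in limma). Without replicate 1 of the saline mice it was -0.97 (adjusted p = 0.0403), and without replicates 1 and 2 it was -0.72 (adjusted p = 0.106). It passed both thresholds in 4 of the 10 fits that left out 1 mouse, with adjusted p from 0.0155 to 0.083.

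In Plod1-/- mice Hspa1a stood at 7.34, 9.85, 10.3, 14.6 and 9.65 FPKM under saline and at 2.90, 9.08, 8.67, 3.84 and 3.98 FPKM under Ang II. The response of -0.84 (SE 0.28, adjusted p = 0.0331 in limma) passed the adjusted p and not the limit on size. Replicate 1 of the Ang II mice, the highest for all 3 small heat shock proteins, was the lowest for Hspa1a. The genotypes did not differ by both thresholds under saline (-0.85, 95% confidence interval -1.87 to 0.18) or under Ang II (-0.25, -0.97 to 0.47).

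Hspa1b, the near-identical second gene, followed Hspa1a at a higher level. It stood at 138, 47.6, 14.2, 12.1 and 27.6 FPKM in WT saline and at 8.68, 8.95, 8.74, 24.4 and 7.64 FPKM in WT Ang II mice. Its change of -1.51 (SE 0.58, adjusted p = 0.0567 in limma) did not pass, and without replicates 1 and 2 of the saline mice it was -0.63 (adjusted p = 0.23). The summed values of both genes changed by -1.54 (SE 0.55, adjusted p = 0.0452) in WT mice and by -0.68 (SE 0.26, adjusted p = 0.0535) in Plod1-/- mice. Hspa1b of Plod1-/- mice ranged from 12.5 to 23.3 FPKM under saline and from 6.32 to 14.5 FPKM under Ang II.

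Dnajb1, the HSP40 partner of HSP70, showed the single mouse most plainly. The WT saline mice stood at 117, 21.9, 16.7, 15.4 and 20.0 FPKM. All other 15 mice lay between 15.2 and 32.3 FPKM, the highest being replicate 4 of the WT Ang II mice. The change in WT mice was -0.47 (SE 0.48, adjusted p = 0.44 in limma) and turned to 0.06 without replicate 1. In Plod1-/- mice it was 0.18 (95% confidence interval -0.08 to 0.45).

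Hsph1, the HSP110, ranged from 16.7 to 63.4 FPKM in WT saline mice, with 63.4 and 52.1 FPKM in replicates 1 and 2 and 24.0 FPKM or less in the other 3. It ranged from 10.3 to 27.5 FPKM in WT Ang II, 13.3 to 27.9 in Plod1-/- saline and 9.85 to 22.0 in Plod1-/- Ang II mice. Its change in WT mice was -0.98 (SE 0.39, adjusted p = 0.0658 in limma) and -0.36 without those 2 mice. The change in Plod1-/- mice was -0.29 (SE 0.25).

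Bag3, the co-chaperone that links HSP70 to small heat shock proteins, stood at 148 FPKM in replicate 1 of the WT saline mice and at 63.1 to 84.8 FPKM in the other 4. It ranged from 41.1 to 86.6 FPKM in WT Ang II, 50.0 to 68.6 in Plod1-/- saline and 38.9 to 50.7 in Plod1-/- Ang II mice. Its changes under Ang II were -0.64 (SE 0.26, adjusted p = 0.0656) in WT and -0.33 (SE 0.13, adjusted p = 0.0515) in Plod1-/- mice in limma. The WT value was -0.46 without replicates 1 and 2 of the saline mice (adjusted p = 0.177).

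Replicate 1 of the saline-treated WT mice was the highest of its group for 5 of the 7 chaperones (Hspa1a, Hspa1b, Hsph1, Dnajb1 and Bag3) and for none of the small heat shock proteins. The 12 immediate early genes, which respond within minutes to handling and injury, summed to 3200 FPKM in this mouse and to 709 to 2109 FPKM in the other 4 of its group. Atf3, a stress-induced member of that list, stood at 119 FPKM there and between 3.23 and 47.0 FPKM in the other 19 mice. The sum was 186 to 337 FPKM in WT Ang II, 320 to 1659 in Plod1-/- saline and 770 to 1978 in Plod1-/- Ang II mice. Ordered by group mean it was highest in WT saline (1771 FPKM), then Plod1-/- Ang II (1397), Plod1-/- saline (765) and WT Ang II (274), the order of the means of Hsp90aa1, while Hspa1a had its lowest mean in Plod1-/- Ang II mice. The part of these genes in the chaperone values was not tested.

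Hsp90aa1, the inducible cytosolic HSP90, was the 1 member of 10 whose response to Ang II differed between genotypes. Of all 13263 genes tested, 9.69% differed in the positive and 6.36% in the negative direction. It stood at 155, 188, 94.1, 109 and 90.2 FPKM in WT saline and at 43.3, 56.9, 61.8, 84.6 and 57.7 FPKM in WT Ang II mice. These groups did not overlap, and the change was -1.02 (SE 0.23, adjusted p = 0.0078 in limma). The Plod1-/- mice stood at 64.2, 62.8, 66.5, 76.9 and 62.8 FPKM under saline and at 93.1, 56.1, 89.6, 67.3 and 61.9 FPKM under Ang II. Here the Ang II values spread on both sides of the saline values, with a change of 0.12 (SE 0.15).

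The difference between the 2 responses of Hsp90aa1 was 1.14 (SE 0.29, 95% confidence interval 0.54 to 1.74, adjusted p = 0.0052 in limma). Under saline all 5 Plod1-/- mice were below all 5 WT mice, by -0.87 (SE 0.19, adjusted p = 0.0309, not past the limit on size), while under Ang II the genotypes differed by 0.27 (95% confidence interval -0.17 to 0.72). Without replicates 1 and 2 of the WT saline mice, the 2 with the highest values, the difference was 0.82 (adjusted p = 0.0243), and the change in WT mice was -0.70 (adjusted p = 0.0478). Both then passed the adjusted p and not the limit on size. The difference was also under the limit on size with weights per mouse (0.97) and without replicate 2 of those mice (0.99), and the WT fall in 6 of 21 alternatives. Over all alternatives the adjusted p ran from 0.00163 to 0.0243 for the difference and from 0.00103 to 0.0478 for the fall.

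Hspe1, the mitochondrial HSP10, was the 1 member whose fitted change was positive in both genotypes. It ranged from 55.2 to 94.3 FPKM in WT saline and from 65.1 to 119 in WT Ang II mice, with a change of 0.29 (95% confidence interval -0.16 to 0.73). In Plod1-/- mice it ranged from 43.4 to 55.8 FPKM under saline and from 53.9 to 93.4 FPKM under Ang II, and the change was 0.50 (SE 0.17, adjusted p = 0.039 in limma). It was lower in Plod1-/- than in WT mice under saline by -0.51 (SE 0.13, adjusted p = 0.0472). Neither value passed the limit on size. In WT Ang II mice 3 of the 5 libraries lay above 86 FPKM. Brown fat markers summed to 605 to 4828 FPKM in that group, against 28.2 to 436 FPKM in WT saline mice. Replicates 1 and 4 of the WT Ang II mice had 65.7 and 65.1 FPKM of Hspe1, with brown fat sums of 2559 and 605 FPKM. In Plod1-/- mice these markers summed to 26.3 to 1391 FPKM under saline and to 165 to 607 FPKM under Ang II. The part of brown fat, a tissue rich in mitochondria, was not tested.

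The wider chaperone network was given by 9 lists with 67 genes, of which 62 or 63 were tested in each comparison. In WT mice under Ang II 4 of 63 rose and 5 fell, beside 6.38% and 2.28% of all genes, and in Plod1-/- mice 2 of 62 rose and 4 fell, beside 8.38% and 5.51%. Between genotypes 2 of 63 were higher and 2 lower under Ang II (7.45% and 3.67% of all genes), and 0 of 62 higher and 2 lower under saline (0.358% and 0.408%). The response was more positive in Plod1-/- mice for 9 of 63 and more negative for 3 (9.69% and 6.36%). Without replicates 1 and 2 of the WT saline mice the counts were 4 and 2 of 62 in WT mice and 0 and 1 of 62 under saline. For the response they were 6 and 3 of 63. The shares of all genes given above belong to the fits on all mice, so the drop in these counts is not read as a result about the lists. The 5 genes below the filter in 1 comparison or more, Cryaa, Hspb3, Hspb9, Hspa1l and Bag4, gave 18 comparisons by a two-sided exact permutation test, of which 2 had an unadjusted p below 0.05 and none an adjusted one (smallest adjusted p = 0.25). The median change over the lists was -0.39 in WT and 0.11 in Plod1-/- mice.

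The lists closest to the HSP70 members gave few calls. Hspa8, the constitutive HSC70, fell in WT mice (-1.10, SE 0.31, adjusted p = 0.0191 in limma), where replicates 1 and 2 of the saline group held 1197 and 1506 FPKM and the other 3 held 507 to 694. Its responses differed between genotypes by 1.00 (SE 0.38, adjusted p = 0.0451). Neither passed without replicates 1 and 2, at -0.61 (adjusted p = 0.0864) and 0.52 (adjusted p = 0.203). Hspa2, an HSP70 best known from the testis, fell in Plod1-/- mice (-1.87, SE 0.19), was lower in them than in WT mice under Ang II (-1.01, SE 0.31), and differed in its response (-1.34, SE 0.37). Hspa12b, an endothelial HSP70 relative, was lower in Plod1-/- than in WT mice under Ang II (-1.04, SE 0.31). Of the list of 8 other J-domain proteins only Dnajb5 fell, in WT (-1.24, SE 0.30) and Plod1-/- mice (-1.49, SE 0.27), and the WT value was -0.92, under the limit on size, without replicates 1 and 2 of the saline mice. No gene among the BAG proteins or among the HSP90 genes and co-chaperones passed in any comparison.

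The chaperones of the mitochondria and the endoplasmic reticulum were listed separately. Of 7 mitochondrial chaperones 4 rose in WT mice under Ang II, namely Hspa9 (1.22), Dnaja3 (1.32), Trap1 (1.04) and Grpel1 (1.03), and none passed in Plod1-/- mice. In the same comparison 5 of 6 brown adipocyte markers rose (median of the list 4.43), and the mitochondrial share of the summed FPKM went from 11.1% to 23.3%. Replicate 4, with the lowest brown adipocyte sum of the WT Ang II mice, was also the lowest of them for these 4 genes, and the part of brown fat was not tested. Hspd1, the HSP60 that works with Hspe1, changed by 0.63 in WT and by 0.75 in Plod1-/- mice and did not pass the limit on size. The responses of Lonp1 (-1.10) and Dnaja3 (-1.07) differed between genotypes. Of 7 endoplasmic reticulum chaperones Hspa5 (BiP), the master chaperone of that compartment, fell in WT mice (-1.25, SE 0.20), was lower in Plod1-/- than in WT mice under saline (-1.27, SE 0.16), and differed in its response by 2.16 (SE 0.26, adjusted p = 2.61e-05 in limma). Hsp90b1 (1.41), Pdia4 (1.54) and Dnajb11 (1.31) also differed in their responses, as did Cct3 (1.16) and Cct6a (1.00) of the 8 subunits of the TRiC chaperonin. Without replicates 1 and 2 of the WT saline mice the differences of Cct3 (0.89) and Cct6a (0.84) were under the limit on size, and that of Dnaja3 (-1.02) had an adjusted p of 0.0527.

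Among the heat shock factors and their regulators, Hsf1 itself did not pass both thresholds in any comparison, with changes of -0.46 in WT and -0.67 in Plod1-/- mice under Ang II. Ier5, an immediate early gene whose product acts on heat shock factor 1, rose in Plod1-/- mice (1.73, SE 0.40), was higher in them than in WT mice under Ang II (1.87, SE 0.33), and differed in its response (1.998, SE 0.54). Serpinh1 (HSP47), the collagen chaperone, fell in WT mice (-1.02, SE 0.21), rose in Plod1-/- mice (1.31, SE 0.30), and differed in its response by 2.33 (SE 0.37). It was lower in Plod1-/- mice under saline (-1.09, SE 0.15) and higher in them under Ang II (1.24, SE 0.33). When replicates 1 and 2 of the WT saline mice were left out, its fall in WT mice (-0.82) and its difference under saline (-0.89) were under the limit on size, and its responses differed by 2.13. None of the 10 members passed both thresholds in the direction of a rise in any comparison of 2 groups.

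How the members varied together from mouse to mouse within groups was tested for each pair. Each gene's log2(FPKM + 1) was taken as a deviation from its group mean, over 20 mice, and the 45 pairs were tested by 100000 permutations within groups. Of 21 chaperone pairs 7 passed an adjusted p of 0.05, of 21 pairs between the classes 1 passed, and of 3 small heat shock protein pairs none did. The median Pearson's r was 0.56, 0.19 and 0.52. The 7 chaperone pairs are not independent. They hold Hspa1a with Hspa1b, whose reads cannot be fully separated, and the pairs of each of these genes with Dnajb1 and with Hsph1. The numbers of passing pairs were not compared by a test. Pairs of other genes were not tested, so no background share stands beside these numbers. High values of r were not rare: among 13262 other genes Hsph1 ranked 54th for Hspa1a (r 0.74) and Hspb1 285th for Cryab (r 0.75).

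Hspa1a and Hspa1b had the highest r, 0.95 (Spearman's rho 0.86, adjusted permutation p = 0.0013 for r); reads of the 2 genes cannot be fully separated. It was 0.89 without the 2 mice farthest from the median. Dnajb1 varied with Hspa1a (r 0.89, rho 0.77, adjusted permutation p = 0.0036, r 0.76 without the 2 farthest) and with Hspa1b (r 0.88, rho 0.73, adjusted permutation p = 0.0036, r 0.74). Hsph1 varied with Hsp90aa1 (r 0.83, rho 0.78, adjusted permutation p = 0.0048, r 0.79). Hsph1 also passed with Hspa1a (r 0.74, rho 0.68), Hspa1b (r 0.78, rho 0.64) and Dnajb1 (r 0.63, rho 0.51), and these fell to 0.56, 0.63 and 0.34 without the 2 farthest mice. Leaving out replicates 1 and 2 of the WT saline mice left 4 passing pairs in all, 3 of them between chaperones.

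Among the small heat shock proteins the values rested on 1 mouse. Hspb1 and Cryab had an r of 0.75 (rho 0.51, adjusted permutation p = 0.187), and 0.076 without the 2 farthest mice. The median r of their 3 pairs was 0.17 without replicate 1 of the Ang II-treated Plod1-/- mice. The 1 passing pair between the classes was Cryab with Hsp90aa1 (r 0.58, rho 0.69, adjusted permutation p = 0.0048, r 0.63 without the 2 farthest). Hspe1 passed with no other member.

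**Figure D4:**
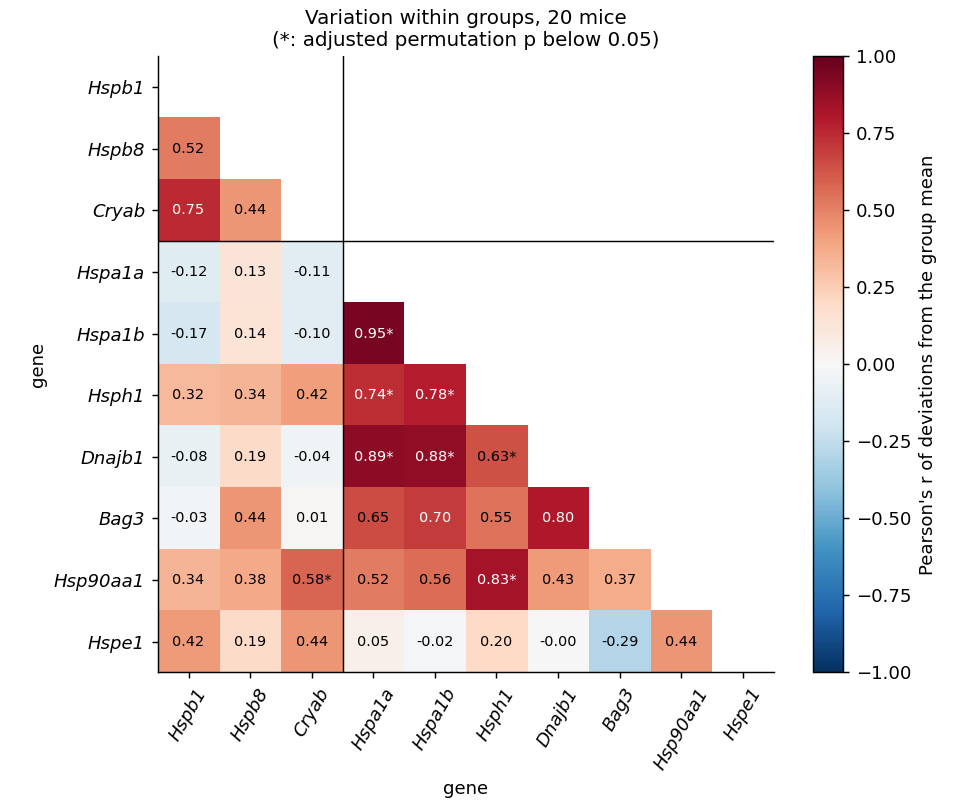
Pearson's r of the deviations of log2(FPKM + 1) from the group mean for each pair of the 10 genes over 20 mice, with an asterisk where the adjusted permutation p was below 0.05 and lines that separate the 3 small heat shock proteins. The 6 pairs of Hspa1a, Hspa1b, Hsph1 and Dnajb1 run from 0.63 to 0.95, pairs such as Hsph1 with Hsp90aa1 (0.83) and Dnajb1 with Bag3 (0.80) lie in the same range, and the rectangle between the classes holds values from -0.17 to 0.58.

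The genes most like each of 4 members were found by the same deviations among 13262 other genes, as a description. For Hspb1 they were Tinagl1 (r 0.92), Cltb (0.90) and Crip2 (0.90), and for Cryab Fkbp1a (0.95), Cystm1 (0.94) and Fez2 (0.94). The small heat shock protein gene Hspb7 stood at rank 5 for Cryab (0.93), and Cryab ranked 96th for Hspb1. For Hspa1a they were Hspa1b (0.95), Gm15542 (0.93) and the J-domain gene Dnaja1 (0.93), with Dnajb1 at rank 6. For Dnajb1 they were Gm7816 (0.91), Ppp1r10 (0.91) and the immediate early gene Egr3 (0.90). The points share 20 libraries, and the few mice named above weigh on all of these values.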

How the data were processed

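Abdominal aortas of 20 mice were sequenced, and the authors deposited 1 table of FPKM per mouse, made with cuffnorm after HISAT2 alignment and StringTie assembly by their methods. The submitters' processing notes name mm10, Bowtie2 2.2.3, HISAT2 2.1.0 and HTSeq 0.6.0; the annotation release is not given in the sources used here. FPKM were not turned back into counts, so no count test was run. log2(FPKM + 1) was fitted in limma 3.58.1 (R 4.3.3), with a variance trend, for genes at 1 FPKM or more in at least 5 mice; differences between responses were fitted over all 20 mice. Fold changes on this scale understate changes of low genes. The fit was tested on simulated data before use. Genes named outside the 10 were all those of the lists that passed both thresholds, up to 5 per list and comparison, and the 3 most similar to Hspb1, Cryab, Hspa1a and Dnajb1; Hspd1, Hsf1, Hspb2 and Atf3 were named after their values were seen. The members and lists were chosen with earlier results of these data known. Pairs of members were compared by 100000 permutations within groups (Python 3.11.15, scipy 1.17.1). Alternatives changed the pseudocount, filter, scaling, variance model, weights, thresholds, grouping of the fit and mice used. The labels do not tie mice to litters. Precision is limited by 5 mice a group; counting depth is known only in relative terms.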

Additional observations from a re-analysis of the deposited data

Results flagged for a closer look

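Of 40 sets of 5 mice (10 genes in 4 groups), 12 held a mouse whose gap to its nearest neighbour exceeded 0.71 of the group's range. This is Dixon's 95% critical value, which normally distributed values exceed in about 1 set in 20. FPKM were used here without a log, the share over all genes was not determined, and members that vary together are not independent. The 12 sets were therefore listed and not tested as an excess over chance. Replicate 1 of the WT saline mice stood apart as high for Hspa1a (73.3 FPKM), Hspa1b (138 FPKM), Dnajb1 (117 FPKM) and Bag3 (148 FPKM). Replicate 4 of the WT Ang II mice stood apart as high for Hspa1a (13.1 FPKM), Hspa1b (24.4 FPKM) and Dnajb1 (32.3 FPKM). Replicate 1 of the Plod1-/- Ang II mice stood apart as high for Hspb1 (2870 FPKM) and Cryab (739 FPKM). Replicate 4 of the Plod1-/- saline mice stood apart as high for Hspa1b (23.3 FPKM) and Hsp90aa1 (76.9 FPKM), and replicate 3 of the Plod1-/- Ang II mice as low for Bag3 (38.9 FPKM).

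The responses to Ang II differed between genotypes, by limma's test of the difference itself (Plod1-/- minus WT, change of log2(FPKM + 1)), for Hsp90aa1 (1.14, adjusted p = 0.0052) among the members. In the wider lists they differed for Serpinh1 (2.33), Hspa5 (2.16), Ier5 (1.998), Pdia4 (1.54), Hsp90b1 (1.41), Dnajb11 (1.31), Cct3 (1.16), Hspa8 (1.00) and Cct6a (1.00), all more positive in Plod1-/- mice. They were more negative for Hspa2 (-1.34), Lonp1 (-1.10) and Dnaja3 (-1.07). By the same thresholds 9.69% of all 13263 genes tested were more positive and 6.36% more negative.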

How the results depend on the processing

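The fall of Hspb1 in WT mice passed both thresholds in all 21 alternatives run. The fall of Hspa1a was lost in 9 of 21 and that of Hsp90aa1 in 6 of 21, the lower Hspb1 of Plod1-/- saline mice in 7 of 22, and the Hsp90aa1 difference in 3 of 31, with no change of sign. FPKM give no counts, so counting error of the lowest genes is unknown.

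The number of members called in Plod1-/- mice under Ang II was 0; it became 2 with weights per mouse, 3 by the adjusted p alone, 3 without both libraries with Xist RNA, and 0 to 3 with 1 mouse left out (3 without replicate 1 of the Ang II mice). In WT mice 3 became 5 by the adjusted p alone, 1 without replicates 1 and 2 of the saline mice (chosen after seeing the data), and 1 to 5 with 1 mouse left out. Under saline 1 became 0 without the filter on low values, 3 by the adjusted p alone, 0 with all 4 groups in 1 fit, 0 without those 2 mice, and 0 to 1 with 1 mouse left out. For the difference between responses 1 became 0 with weights per mouse and without those 2 mice, and 0 to 1 with 1 mouse left out. Between genotypes under Ang II it was 0 in every alternative. Over all genes tested, the adjusted p alone raised the calls from 1714 to 5408 in Plod1-/- mice, 1039 to 4560 in WT mice, 1373 to 3849 under Ang II, 92 to 786 under saline and 2129 to 5017 for the difference. Weights per mouse gave 2134 under Ang II; under saline there were 149 with a pseudocount of 0.1, 41 without the filter, 57 with all 4 groups in 1 fit, 60 without the Xist libraries and 31 without replicates 1 and 2 of the WT saline mice. Quantile normalization moved the median change of all genes from 0.12 to -0.026 under Ang II and from 0.053 to -0.055 in Plod1-/- mice. The replicate numbers did not pair the mice (deviations of same-numbered mice correlated between -0.37 and 0.43), and with the number as a replicate block the counts were 0 in Plod1-/- mice, 2 in WT mice, 0 under Ang II, 1 under saline and 1 for the difference. Of 8 pairs 5 passed with Spearman's rho and 4 without replicates 1 and 2 of the WT saline mice. The cause of these changes was not tested. For settings without a count over all genes, the member counts have no background share beside them. A move in such a count is therefore not read as a result about the members.

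Signs changed only for values that passed no threshold. The Dnajb1 response in WT mice became 0.14 without those 2 mice and ranged from -0.66 to 0.056 with 1 mouse left out. Between genotypes under Ang II, Dnajb1 became -0.080 with quantile normalization and -0.064 with FPKM rescaled without mitochondrial genes, Hspa1b 0.12 with weights and 0.11 without the Xist libraries, and Bag3 0.022 with weights. With 1 mouse left out these differences ranged from -0.042 to 0.22 for Dnajb1, -0.16 to 0.24 for Hspa1b, -0.23 to 0.15 for Hsph1, -0.24 to 0.028 for Bag3, -0.75 to 0.15 for Cryab and -0.67 to 0.11 for Hspb1. The difference between responses became -0.013 for Cryab with that rescaling, -0.12 with weights, -0.42 without the Xist libraries and -0.45 to 0.44 with 1 mouse left out, -0.20 for Hspe1 with weights, and -0.12 for Hspa1a without replicates 1 and 2 of the WT saline mice.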
